A study of Rattus norvegicus with 5 samples.

Results

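Olfactory receptor genes were examined as sites of enrichment by an antibody against N6-methyladenine (6mA), a methylated form of the DNA base adenine, in rat neural cells. A peak was taken where the deposited list named an Olr gene (the prefix followed by digits only) in its promoter, upstream 2 kb, exon, intron, downstream 2 kb or gene body column. This rule took 610 of 375486 peaks: 199 of 121816 in neural stem cells (NSCs), 231 of 137579 in Neurons and 180 of 116091 in Astrocytes. They named 341 Olr genes, and 7 of the peaks named a pair of them. The NSCs were the SCR022 cell line, which is 1 source of cells; for Neurons and Astrocytes the labels give a cell type and no strain, age or treatment. Each cell type had 1 immunoprecipitated library, and inputs without antibody enrichment were samples for NSCs and Neurons. With 1 library per cell type there is no spread between replicates to set a difference against, and no test was made. DNA libraries carry no expression, so the cell type labels could not be checked against marker genes, and no second measure of 6mA was used here.

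Olfactory receptors are G protein-coupled receptors that bind odorants on the cilia of olfactory sensory neurons. Each of these neurons expresses 1 allele of 1 receptor gene, while the other receptor genes are kept silent in compacted chromatin. The genes are small, most have their coding sequence in a single exon, and they stand in clusters on many chromosomes. Class I receptors resemble those of fish and share a cluster, and class II receptors form the larger, mammalian group. Binding of an odorant acts through the G protein subunit Gnal, the adenylate cyclase Adcy3, a cyclic nucleotide-gated channel and the chloride channel Ano2. In stem cells, neurons of the brain and astrocytes most of these receptors are not expected to be in use.

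The immunoprecipitated libraries held 15760246 to 16095308 reads, of which 13785430 to 13930646 mapped uniquely, and the inputs held 22329441 and 27936774. Positions are those of the deposited files, and the sources used here name no genome build for them. Fold is the authors' ratio of a library to an input, and score is 10 times the −log10 p of the peak, at least 50 in every list. The Astrocyte list is named as set against an astrocyte input, which appears in the mapping summary but is not among the samples. Folds of different cell types come from separate lists, so an order among them describes the listed values and was not tested.

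Promoter sequences are shown for 6 receptor genes that had a promoter peak in all 3 cell types, taken from the highest smallest score downwards among genes with a RefSeq window on the chromosome the files name. Each runs 5′ to 3′ over 300 bases of the GRCr8 assembly, from RefSeq. Capitals at bases 251 to 253 mark the first 3 bases of the gene model, and the other capitals, in Olr1642, mark a TAATTA match. The windows could not be aligned to the peaks, since the build of the peaks is not known.
Olr292, chr1:204639179-204639478, plus strand: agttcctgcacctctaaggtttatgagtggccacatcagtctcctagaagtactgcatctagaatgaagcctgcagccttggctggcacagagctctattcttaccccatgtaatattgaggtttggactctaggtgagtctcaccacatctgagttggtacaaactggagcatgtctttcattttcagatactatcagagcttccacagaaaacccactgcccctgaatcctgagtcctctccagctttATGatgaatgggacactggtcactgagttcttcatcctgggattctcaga
Olr322, chr1:218422919-218423218, minus strand: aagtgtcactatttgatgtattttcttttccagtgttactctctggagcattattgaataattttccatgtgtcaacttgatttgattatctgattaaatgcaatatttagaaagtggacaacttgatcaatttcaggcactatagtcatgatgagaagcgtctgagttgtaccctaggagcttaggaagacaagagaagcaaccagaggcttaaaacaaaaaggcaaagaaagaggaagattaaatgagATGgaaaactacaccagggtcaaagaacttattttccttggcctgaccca
Olr287, chr1:204406318-204406617, plus strand: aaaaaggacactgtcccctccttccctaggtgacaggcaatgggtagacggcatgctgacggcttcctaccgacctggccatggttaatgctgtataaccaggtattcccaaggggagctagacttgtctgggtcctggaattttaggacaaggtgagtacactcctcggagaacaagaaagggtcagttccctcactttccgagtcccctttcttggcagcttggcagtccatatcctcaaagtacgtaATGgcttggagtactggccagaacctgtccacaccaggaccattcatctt
Olr1466, chr10:58473760-58474059, plus strand: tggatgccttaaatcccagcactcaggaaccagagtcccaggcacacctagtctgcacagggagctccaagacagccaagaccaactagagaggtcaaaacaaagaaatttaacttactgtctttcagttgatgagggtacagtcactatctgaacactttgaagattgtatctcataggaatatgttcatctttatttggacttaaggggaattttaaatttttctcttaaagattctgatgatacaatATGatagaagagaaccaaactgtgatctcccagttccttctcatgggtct
Olr878, chr7:2087482-2087781, minus strand: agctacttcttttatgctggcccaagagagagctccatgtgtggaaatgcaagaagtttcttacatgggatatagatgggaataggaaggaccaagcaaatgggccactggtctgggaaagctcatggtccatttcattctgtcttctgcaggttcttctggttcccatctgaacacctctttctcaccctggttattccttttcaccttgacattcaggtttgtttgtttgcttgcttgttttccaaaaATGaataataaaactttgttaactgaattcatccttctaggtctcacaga
Olr1642, chr15:27620025-27620324, minus strand: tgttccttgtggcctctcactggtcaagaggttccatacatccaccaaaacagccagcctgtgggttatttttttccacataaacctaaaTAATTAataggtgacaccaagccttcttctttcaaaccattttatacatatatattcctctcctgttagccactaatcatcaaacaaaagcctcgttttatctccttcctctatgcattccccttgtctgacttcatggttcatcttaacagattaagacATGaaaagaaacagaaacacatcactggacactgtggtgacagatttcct

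The first triplet was ATG in all 6, as in 99.3% of the olfactory receptor windows of that table. The windows are thus placed by the start codon. Most of their bases lie before it, and they may not hold the site where transcription starts. The 6 windows held 48.3% to 63.3% A and T. In the NSC list none of the 6 peaks named an exon. Olr292, RefSeq name Or12j2, had the NSC peak at chr1:212883686-212884290, and Olr322, RefSeq name Or4d10, at chr1:228505600-228506337. Olr287 (Or6f2) had it at chr1:212650761-212651417, Olr1466 (Or1e1) at chr10:59921765-59922511, Olr878 (OR6c8) at chr7:3500461-3500945 and Olr1642 (Or10g1) at chr15:28855327-28855760. These are promoter and upstream 2 kb peaks in the authors' annotation.

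Receptor genes with a promoter or exon peak in all 3 cell types numbered 31. A promoter peak was shared by 30 of them, an exon peak by 3 (Olr81, Olr83 and Olr1129), and for 30 the peaks of the 3 lists overlapped at 1 place. Olr1096 was the exception. In 14 of the 31 the score was at least 100 in every list.

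Olr292 had the largest fold of any olfactory receptor peak in each cell type, 86.50 in NSCs, 49.04 in Neurons and 59.80 in Astrocytes. These lay at percentiles 99.7, 96.8 and 98.0 of all folds in their own lists. Olr81, RefSeq name Or52j3b and thus a class I receptor, had folds of 30.09, 24.52 and 47.08 and scores of 501.40, 500.32 and 723.26 in the same order. Its peak covered promoter and exon, at chr1:168293139-168293844 in NSCs. Olr735 had folds of 28.83, 33.80 and 27.99. Olr322 had 25.64, 43.90 and 28.17, and Olr1642 had 21.12, 34.43 and 28.08. Olr1295 had 26.41, 25.75 and 30.54, with the narrowest range among the 7 genes of largest median fold. Olr878 had 41.37, 25.54 and 16.54, with its highest value in NSCs.

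**Figure D1:**
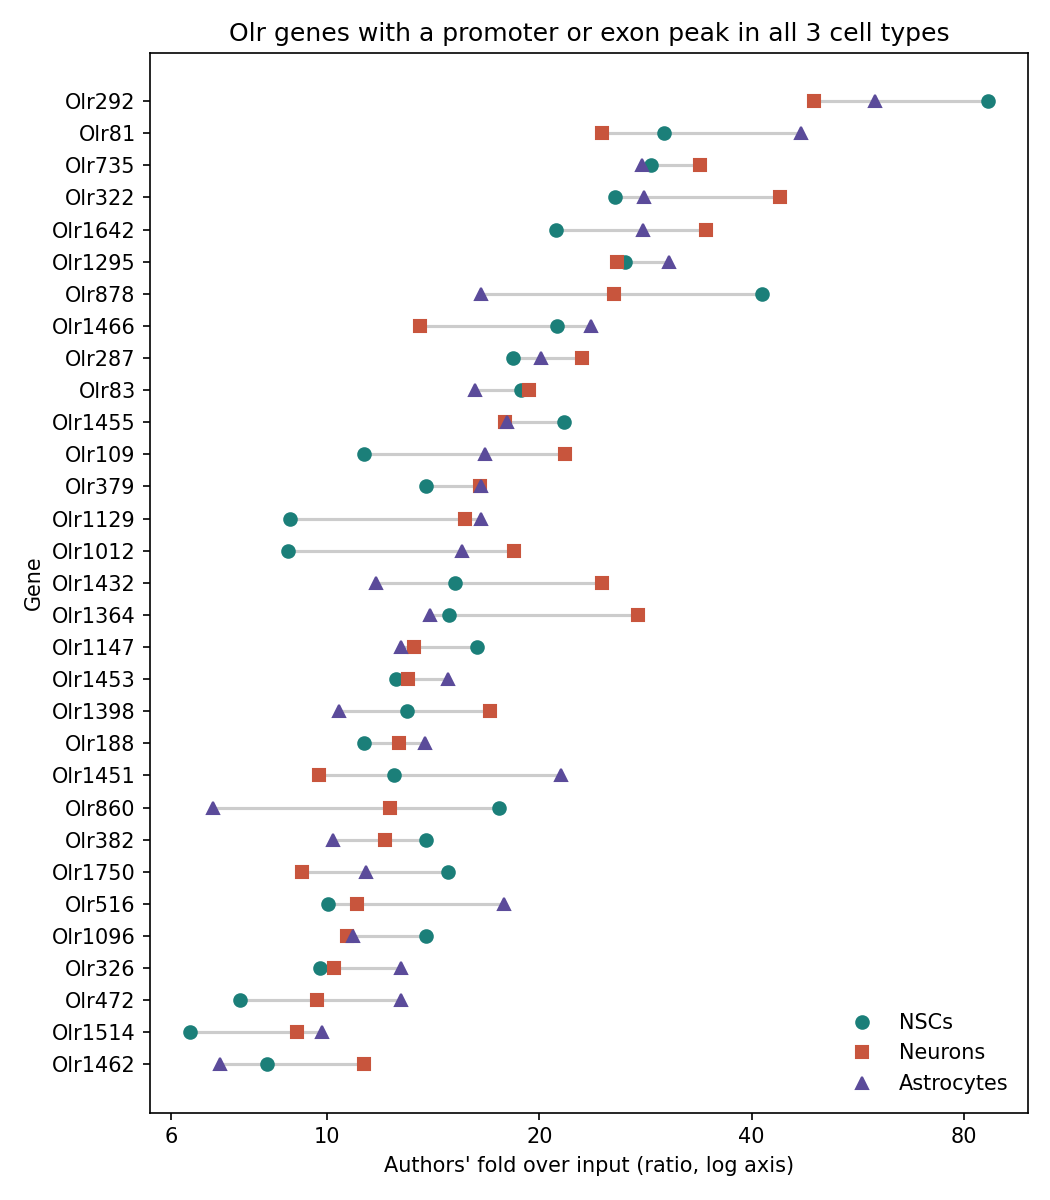
Authors' fold over input (x axis, ratio, log axis) of the 31 olfactory receptor genes (y axis) with a promoter or exon peak in all 3 cell types, 1 point per cell type and a line over the range. Olr292 lies to the right in every cell type (86.50, 49.04 and 59.80), and most other genes lie between 6.39 and 30.

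Below these stood Olr287 (folds 18.35, 22.99 and 20.13 in NSCs, Neurons and Astrocytes), Olr1466 (21.15, 13.52 and 23.66), Olr83 (18.81, 19.32 and 16.21) and Olr1455 (21.65, 17.85 and 17.97). Olr1364 had its highest fold in Neurons (27.59, against 14.86 in NSCs and 14.00 in Astrocytes), as had Olr1432 (24.52, 15.19 and 11.74 in that order). Olr1129, the gene with an exon peak and no shared promoter peak, had 8.86 in NSCs, 15.69 in Neurons and 16.54 in Astrocytes. Olr109, Olr1012, Olr379, Olr1398 and Olr1147 had folds between 8.78 and 21.73. Olr326, Olr1453, Olr188, Olr382, Olr1750, Olr1451, Olr860, Olr472 and Olr516 lay between 6.88 and 21.43. Olr1096, whose peaks did not overlap at 1 place, had 13.79, 10.65 and 10.89. Olr1462 and Olr1514 had the lowest folds of the set by their median over the cell types, 8.21, 11.27 and 7.04 for the first and 6.39, 9.06 and 9.83 for the second. The scores of Olr1514 were 50.42, 69.22 and 60.02, of which the NSC score lay just above the minimum.

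Outside promoters and exons, strong peaks also lay behind receptor genes. In NSCs the 5 largest folds belonged to Olr292, Olr878, Olr310 (32.34), Olr40 (31.11) and Olr1194 (30.46), and those of Olr310, Olr40 and Olr1194 lay in the downstream 2 kb. In Neurons Olr292 and Olr322 were followed by Olr1626 (42.25, promoter), Olr86 (37.43, downstream) and Olr1382 (35.07, downstream). In Astrocytes Olr292 and Olr81 were followed by Olr40 (44.54, downstream), Olr1088 (35.55, intron) and Olr1382 (34.87, downstream). The Olr1088 intron peak, at chr7:14114769-14115604 in Astrocytes, had the largest score of all 610 peaks, 993.83, with 672.73 in NSCs and 517.70 in Neurons. It was thus present in all 3 cell types, with folds of 35.55 in Astrocytes, 21.54 in NSCs and 30.21 in Neurons.

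Most of the 341 genes had few peaks. Olr1877 had the most, 7 over the 3 lists, with 4 of them in Neurons, and its RefSeq gene model is 13647 bp long. Olr1078 had 6 peaks, all in introns, 2 in NSCs, 3 in Neurons and 1 in Astrocytes. Its RefSeq gene model is 1002 bp long, while intron regions of the comparison lists start at 13474698 and 13478721. The deposited annotation thus used a longer model of this gene. Olr86, Olr1455 and Olr1621 had 5 each. At Olr86 a downstream peak near chr1:168380425-168381042 recurred in every cell type, with folds of 23.42 in NSCs, 37.43 in Neurons and 34.53 in Astrocytes. Its promoter peak, fold 19.32, was listed in Neurons alone. The downstream peak of Olr1621 recurred too, with folds of 25.07, 19.31 and 11.45 in NSCs, Neurons and Astrocytes.

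The typical receptor peak was of ordinary fold and somewhat low score. The median fold was 12.54 in NSCs, 11.91 in Neurons and 12.72 in Astrocytes, beside 12.19, 12.07 and 12.27 over all peaks of those lists. The median score was 77.98, 72.82 and 77.26, beside 86.80, 88.26 and 87.01 over all peaks. The median width was 412, 403 and 392 bp, beside 468, 457 and 448 bp. A score of at least 100 was reached by 29.6%, 35.9% and 32.2% of receptor peaks in NSCs, Neurons and Astrocytes, and by 42.1%, 42.9% and 42.2% of all peaks.

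Receptor peaks lay beside their genes more than within them. A flank alone, within 2 kb and with no gene body, held 81.4% of the NSC peaks (exact Clopper-Pearson 95% interval 75.3 to 86.6), 84.0% of the Neuron peaks and 86.1% of the Astrocyte peaks. Among all peaks with a gene those shares were 9.69%, 10.1% and 9.74%. The flanks take up most of the searched length at receptor genes: the median RefSeq length of a receptor gene is 942 bp, or 19.1% of a gene with its 2 kb on both sides. Gene bodies held 18.6% of the NSC peaks, 16.0% of the Neuron peaks and 13.9% of the Astrocyte peaks (9.19 to 19.8). Promoters held 50.3%, 45.0% and 48.3% of receptor peaks in NSCs, Neurons and Astrocytes, and 7.84%, 8.29% and 7.79% of all peaks with a gene. Introns held 8.04%, 6.93% and 6.67% of receptor peaks. CpG islands and their shores held 0 receptor peaks in each list, which allows shares of up to 1.84%, 1.58% and 2.03% by the same interval. Over all peaks, islands held 0.149%, 0.210% and 0.164% and shores 0.914%, 1.07% and 0.993%, which lie within what a count of 0 allows here. Intervals cover counting error only, since reads are not independent molecules and neighbouring genes share peaks.

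How many receptor genes had a peak depended on the genes they were set beside. Of 1195 Olr genes in the RefSeq annotation, 15.3% had a peak in NSCs (95% interval 13.3 to 17.5), 17.3% in Neurons (15.2 to 19.6) and 14.1% in Astrocytes (12.2 to 16.2). Of 19671 other named protein-coding genes, with a median length of 19732 bp, 47.7% had one in NSCs, 51.3% in Neurons and 47.9% in Astrocytes. Receptor genes are far shorter, so genes of like length were set beside them. Among genes of 888 to 1000 bp, 14.9%, 16.0% and 13.6% of 1057 receptor genes had a peak in NSCs, Neurons and Astrocytes, and 10.0%, 11.1% and 7.78% of 180 other genes did. The intervals of these groups overlapped in all 3 cell types, at 12.9 to 17.2 against 6.04 to 15.3 in NSCs. Among genes of 500 to 2000 bp, the shares were 15.1%, 16.4% and 13.9% of 1076 receptor genes, and 8.92%, 10.9% and 9.23% of 1267 other genes. There the intervals, for peaks of any class and score, did not overlap, at 13.0 to 17.3 against 7.41 to 10.6 in NSCs. With a score of at least 100 they overlapped in all 3 cell types, at 5.19 to 8.25 against 3.15 to 5.44 in Neurons. With promoter, exon and intron classes alone they overlapped in Neurons and Astrocytes. In NSCs they then stayed apart, at 7.37 to 10.9 against 4.12 to 6.67. The receptor share was the higher one in each cell type under both limits. Both length ranges were chosen after gene lengths in the reference had been seen, and the genes differ in more than length. Lengths are those of RefSeq, and the gene models of the deposited annotation can be longer, as at Olr1078.

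**Figure D2:**
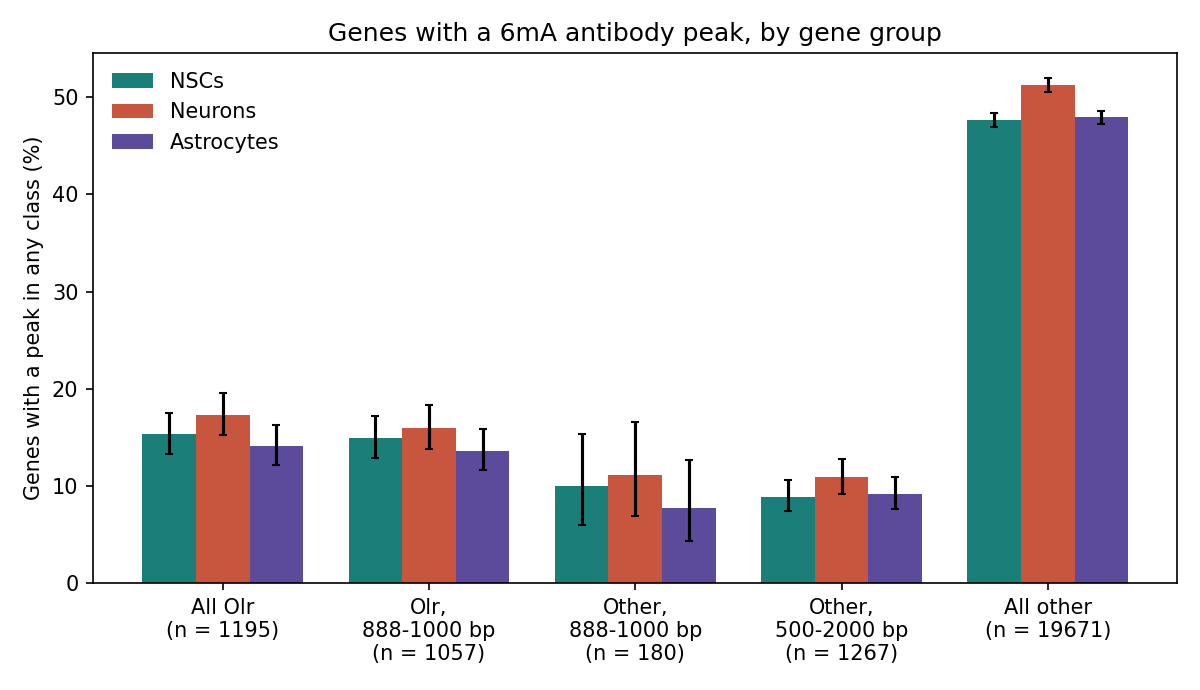
Percentage of genes with a peak in any annotated class (y axis) for olfactory receptor genes and other named protein-coding genes (x axis, with the number of genes), in NSCs, Neurons and Astrocytes. Bars start at 0, error bars are exact 95% intervals for counting error, and receptor genes stand at 14.1% to 17.3%, far below all other genes but not below other genes of like length.

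The authors' deposited table of gene ontology terms ranked olfactory receptor activity first in each cell type. In NSCs the authors' deposited table counted 200 genes with a peak of 1344 in the term, where 545.9 were expected, with an adjusted p-value of 6.66e-45. In Neurons the authors' deposited table counted 215 where 596.7 were expected, with an adjusted p-value of 1.97e-49. In Astrocytes the authors' deposited table counted 172 where 541.8 were expected, with an adjusted p-value of 2.05e-54. The ratio of observed to expected in the authors' deposited table was 0.366, 0.360 and 0.317, so the term ranked first for having fewer genes than expected. The expected number was proportional to the number of genes in a term. In NSCs it was 545.9 for 1344 genes and 8.53 for the 21 genes of olfactory bulb development. Gene length thus did not enter that expectation.

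Class I, taken as families 51, 52, 55 and 56 of the RefSeq symbols, had a peak in 18.0%, 18.0% and 13.3% of 128 genes in NSCs, Neurons and Astrocytes. Class II had one in 14.6%, 16.7% and 13.7% of 996 genes. The intervals of both classes overlapped in each cell type, at 11.7 to 25.7 against 12.4 to 16.9 in NSCs. Among other chemoreceptors, Vom1r pheromone receptors, which are as short as olfactory receptors (median 946 bp), had a peak in 12, 10 and 10 of 101 genes. Vom2r receptors, with a median of 28218 bp, had one in 43, 45 and 46 of 75. Trace amine receptors (Taar) had one in 5, 3 and 6 of 19, and taste receptors (Tas) in 3, 6 and 6 of 37.

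Receptor genes with a peak stood in clusters. Spans with at least 8 such genes and gaps under 1 Mb numbered 14, with 231 genes over 26.8 Mb. All peaks together had a density of 38.6 per Mb inside these spans in NSCs, 41.2 in Neurons and 35.8 in Astrocytes. The same length at the density of the chromosomes concerned would have 45.2, 51.5 and 43.5 per Mb, with the end of the last peak taken as the chromosome's length. Of the 14 spans, 9 lay below their chromosome in all 3 cell types and 3 lay above it. Spans were bounded by receptor peaks themselves, and the minimum of 8 genes was chosen after densities had been seen. With at least 5 genes there were 21 spans, 12 below and 3 above in all 3 cell types.

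The largest class I group was the span on chromosome 1 from 167588590 to 170991086, named chromosome 1 a in the plot of cluster densities. Of its 47 genes with a peak, 38 were class I. It had 53.5, 58.2 and 48.5 peaks per Mb in NSCs, Neurons and Astrocytes, above the 47.2, 52.8 and 44.7 of the chromosome. The other spans above their chromosome in all 3 cell types were a class II group on chromosome 1 (chromosome 1 c, with 65.7, 58.5 and 62.8 per Mb) and one on chromosome 7 (chromosome 7 a, with 58.5, 72.1 and 58.5). The span with the most receptor genes, 49 on chromosome 3 (chromosome 3 a), had 30.8, 33.5 and 28.4 per Mb, below the chromosome's 39.5, 45.1 and 37.8. The lowest was on chromosome 8 (chromosome 8 b), with 24.4, 26.3 and 20.0 per Mb. On the other chromosome 8 span, from 17859732 to 21166278, where 13 of 15 genes were of family 7, Neurons had 15 receptor peaks and NSCs and Astrocytes 5 each. Over all peaks of that span Neurons had 117, NSCs 103 and Astrocytes 91. It is 1 of 14 spans, and others had the fewest receptor peaks in Neurons. Chromosome 15 a had 13 in NSCs, 9 in Neurons and 10 in Astrocytes, and chromosome 20 a had 12, 8 and 10.

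**Figure D3:**
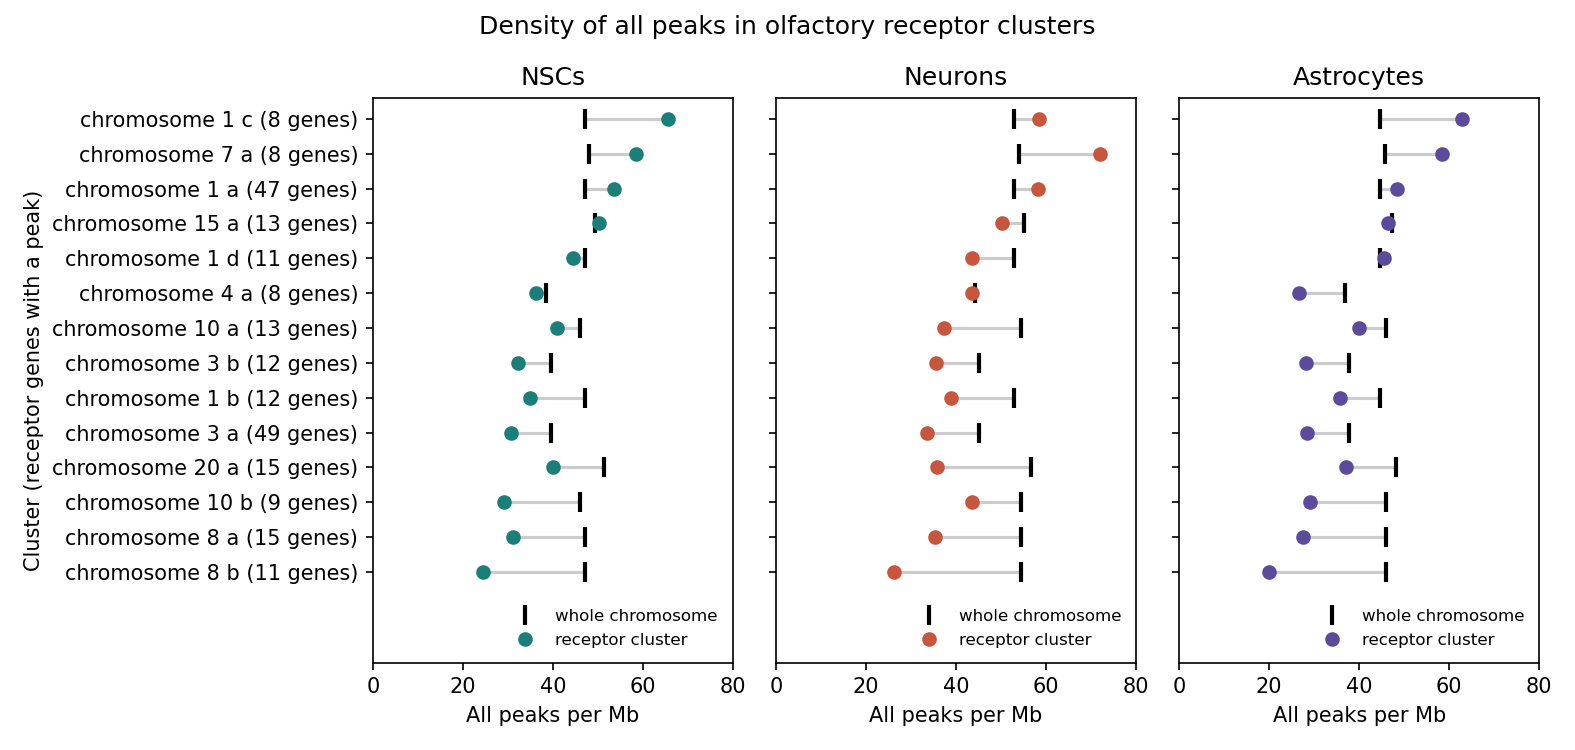
Density of all peaks (x axis, peaks per Mb) inside the 14 spans of at least 8 olfactory receptor genes with a peak (y axis), as points, and over the whole chromosome, as bars, in each cell type. In 9 spans the point lies left of the bar in all 3 cell types, and in 3 spans (chromosome 1 a, 1 c and 7 a) it lies right of it.

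Receptor peaks were found in both other cell types less often than all peaks of the same lists were. A peak in both other cell types was overlapped by 33.2% of NSC receptor peaks (95% interval 26.7 to 40.2), 27.7% of Neuron ones (22.0 to 34.0) and 35.6% of Astrocyte ones. Over all peaks the shares were 43.6%, 38.6% and 45.8%, each above the interval of the receptor peaks. A peak in neither was the case for 41.2% of NSC (34.3 to 48.4), 45.9% of Neuron (39.3 to 52.5) and 31.1% of Astrocyte (24.4 to 38.4) receptor peaks. All peaks gave 32.1%, 36.1% and 29.2%, of which the Astrocyte interval held its value. Astrocyte intervals also held the values of all peaks for overlap with NSCs (41.9 to 57.0 against 56.1%) and with Neurons (47.4 to 62.4 against 60.4%). Because receptor peaks had lower scores, the comparison was repeated among peaks with a score of at least 100. With all lists so limited, 45.8%, 31.3% and 46.6% of receptor peaks were in both others, beside 57.4%, 49.9% and 60.2% of all peaks. In NSCs the interval at that score, 32.7 to 59.2, held the value of all peaks. The Astrocyte interval, 33.34 to 60.13, ended just below the 60.18% of all peaks. For peaks in neither, the intervals of NSCs (22.1 to 47.4) and Astrocytes (16.7 to 40.9) held the values of all peaks, 24.0% and 19.6%. That of Neurons (34.8 to 57.1) lay above 29.3%. With that score in 1 list and any score in the others, the intervals of NSCs (49.1 to 74.96) and Astrocytes (57.3 to 81.9) held the values of all peaks, 74.7% and 78.1%, and that of Neurons (44.1 to 66.3) lay below 69.3%.

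**Figure D4:**
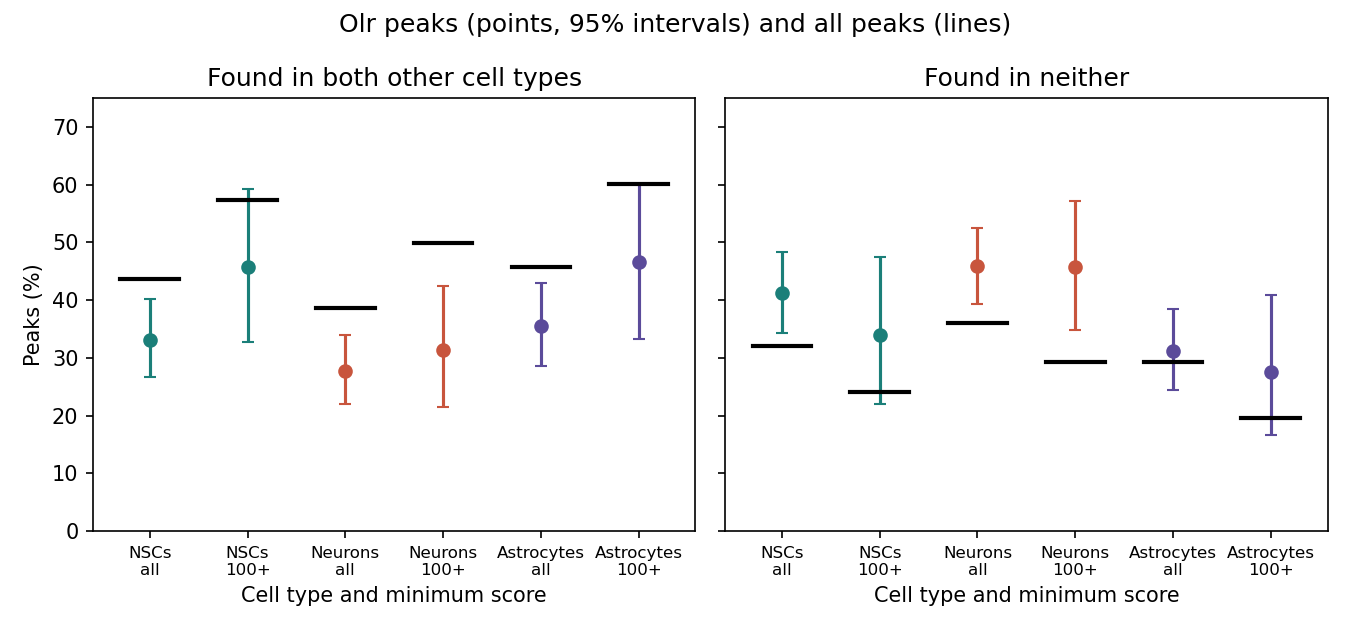
Percentage of peaks (y axis) found in both other cell types (left) and in neither (right), by cell type and minimum score (x axis); points are olfactory receptor peaks with exact 95% intervals and black lines are all peaks. Receptor peaks lie below the lines on the left in every case, and the interval there reaches the line in NSCs at a score of at least 100. In Astrocytes at that score the interval ends just below the line, at 60.13 against 60.18. On the right it reaches the line in Astrocytes at each minimum score and in NSCs at a score of at least 100.

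Shared receptor peaks were the stronger ones, and over all peaks sharing also rose with score. Of all NSC peaks 43.6% were in both others, and of those with a score of at least 100 it was 74.7%. In NSCs the median fold was 15.04 for the 66 receptor peaks found in both other cell types and 11.28 for the 82 found in neither. In Neurons it was 17.11 for 64 peaks and 10.87 for 106, and in Astrocytes 16.38 for 64 and 11.45 for 56. Merging overlapping receptor peaks gave 401 places, of which 61 were in 3 lists, 86 in 2 and 254 in 1. The single-list places numbered 108 in Neurons, 85 in NSCs and 61 in Astrocytes. No such merging over all peaks is set beside these counts, so they do not set receptor genes apart. Over the 61 places in 3 lists, folds had a Spearman rho of 0.59 between NSCs and Neurons, 0.46 between Astrocytes and NSCs and 0.64 between Astrocytes and Neurons. Places share their sequence and base composition across lists, so these are descriptions. By gene, 71 were in all 3 lists, 89 in exactly 2 and 181 in 1 (81 in Neurons, 58 in NSCs and 42 in Astrocytes). Among genes of 500 to 2000 bp, 58 of the 296 receptor genes with a peak had one in all 3 cell types, and 47 of the 215 other genes did, which are close shares. The 3 receptor peaks on the X chromosome, at Olr1766, Olr1767 and Olr1768, were listed in Astrocytes alone, and the 2 on chromosome 9, at Olr1344 and Olr1345, in Neurons alone. These 5 genes were named after their values had been seen, and their scores were 61.43 to 80.73.

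The deposited comparison lists hold regions with more signal in 1 immunoprecipitated library than in another. Of NSC receptor peaks, 23.6% (95% interval 17.9 to 30.1) overlapped a region listed higher than in Neurons, beside 16.9% of all NSC peaks. Of Neuron receptor peaks, 26.4% (20.8 to 32.6) overlapped a region listed higher than in NSCs, beside 19.7% of all Neuron peaks. Both intervals lay above the value of all peaks. For NSCs over Astrocytes the share was 24.6% (18.8 to 31.2) beside 20.2%, and for Neurons over Astrocytes 25.1% (19.7 to 31.2) beside 22.1%. For Astrocytes over NSCs it was 18.3% (13.0 to 24.8) beside 15.0%, and for Astrocytes over Neurons 13.3% (8.73 to 19.2) beside 11.2%. These 4 intervals held the value of all peaks. With comparison regions of a score of at least 100, 3 to 8 receptor peaks were left per list and all 6 intervals held the value of all peaks; in NSCs over Astrocytes the receptor share, 2.01%, lay below the 2.54% of all peaks. The 6 lists share the same 3 libraries, so their shares are not independent of each other.

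**Figure D5:**
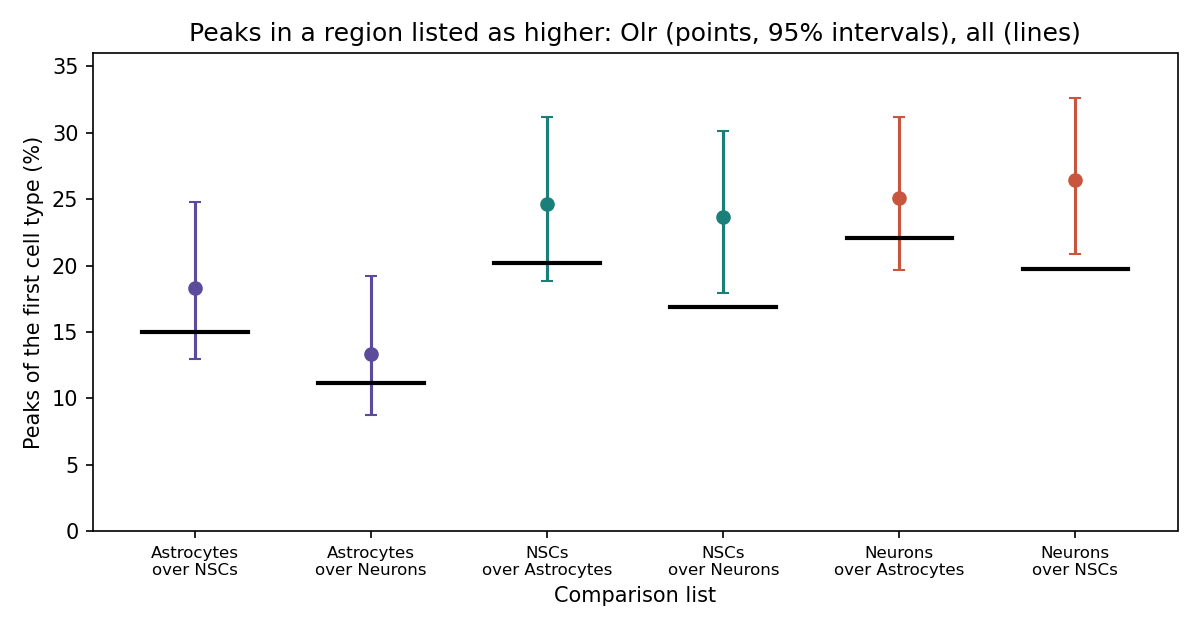
Percentage of the first cell type's peaks (y axis) that overlap a region listed higher in it than in the second (x axis, 6 comparison lists); points are olfactory receptor peaks with exact 95% intervals and black lines are all peaks. At any score, points lie above the lines in all 6 lists, and the interval clears the line for NSCs over Neurons and Neurons over NSCs.

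Between Neurons and NSCs, the authors' deposited table held 72 receptor regions higher in Neurons than in NSCs and 57 higher in NSCs than in Neurons. These are 0.224% of all 32213 regions and 0.206% of all 27634 in those lists, so the larger count goes with the longer list. For Neurons over NSCs, the largest folds of the authors' deposited table at receptor genes were those of Olr1121 (fold 18.51), Olr86 (17.89) and Olr721 (16.44), all in promoters. The Olr1121 region had a Neuron peak of fold 18.11 and no peak in NSCs or Astrocytes. The Olr721 region had a Neuron peak of fold 33.80 and an Astrocyte one of 10.18. For NSCs over Neurons, Olr1166, Olr1620 and Olr720 stood together at 14.81 in the authors' deposited table. The Olr720 region is a promoter, with an NSC peak of fold 15.04 and none in Neurons.

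Against Astrocytes, 64 receptor regions were higher in NSCs and 72 in Neurons in the authors' deposited table. For NSCs, Olr204 led with 18.79 in the authors' deposited table, and Olr1166, Olr500 and Olr671 followed with 15.94 each. Each of these 4 regions overlapped an NSC peak and no peak of Neurons or Astrocytes, while elsewhere at the gene Olr204 had an Astrocyte peak and Olr500 a peak in Neurons and in Astrocytes. The NSC peak at the Olr1166 region had a fold of 6.84 and a score of 53.75. For Neurons, Olr1595 led with 17.79 in the authors' deposited table, in a promoter with a Neuron peak of fold 25.29, and Olr409 and Olr1186 followed with 15.60. In the other direction, 38 regions were higher in Astrocytes than in NSCs and 28 higher than in Neurons in the authors' deposited table. As shares of all regions in their lists, those higher than in Astrocytes were 0.199% in NSCs and 0.181% in Neurons, and those higher in Astrocytes 0.175% over NSCs and 0.169% over Neurons. Over NSCs, Olr29 led with 24.63 in the authors' deposited table, followed by Olr12 and Olr306 with 15.94. The Olr29 promoter had an Astrocyte peak of fold 27.73 and a Neuron peak of 21.73, and none in NSCs. Over Neurons, Olr1002 led with 16.35 in the authors' deposited table, followed by Olr1620 and Olr306 with 15.60. The Olr1620 region had a score of 50.66, just above the minimum. It overlapped an NSC peak of fold 12.49 and no Astrocyte peak. The Olr306 peak covered promoter and exon and was listed in Astrocytes alone, with fold 10.74.

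The RefSeq promoter table held a window for 136 of the 177 genes with a promoter peak and for 24 of the 30 with one in all 3 cell types. Receptor windows were rich in A and T: the median was 64.7% over all of them, 61.7% over those with a promoter peak and 60.3% over the 24, beside 48.3% over all RefSeq windows. The homeodomain-type motif TAATGA, searched on both strands, was in 27.9% of all receptor windows, 16.9% of those with a promoter peak and 4.17% (1) of the 24, beside 11.0% of all windows. TAATTA was in 18.8%, 14.0% and 4.17%, beside 5.36%. The pattern CCCNNGGG, as bound by the Ebf factors of olfactory neurons, was in 1.09%, 2.21% and 8.33%, beside 12.4%. A run of 5 CA dinucleotides was in 0.893%, 0.735% and 0%, beside 1.14%. These are matches of letters in windows whose relation to the peaks is not known, and 24 windows are few. Receptor windows are placed by the start codon, since 99.3% have ATG as the first triplet. No such share is given for all RefSeq windows, so the motif shares may come from unlike places in a gene.

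For the rest of the pathway, genes that serve olfactory signalling, receptor trafficking or receptor choice were taken as a list of 37, with a median length of 66.7 kb. A peak was found in 25 of them in NSCs, 25 in Neurons and 24 in Astrocytes, and in all 3 in 22. Long genes hold more peaks: from 24.9 to 140 kb, the middle range of the list, a peak was found for 15 of 19 list genes in NSCs, 15 in Neurons and 15 in Astrocytes, and for 72.7%, 76.6% and 72.5% of 6877 other genes in NSCs, Neurons and Astrocytes. Slc8a1, a sodium-calcium exchanger, had folds of 50.55, 70.66 and 80.97 in NSCs, Neurons and Astrocytes. Reep1, a protein of receptor trafficking, had largest folds of 84.08, 45.98 and 72.10 among its 8, 9 and 10 peaks. The NSC and Astrocyte peaks of those folds overlapped, at chr4:99655712-99656175 in NSCs. The Neuron one lay elsewhere in the gene, at chr4:99695147-99696102, so the Reep1 folds are not those of a single site. Pde1c, a phosphodiesterase of the cilia, had 46.39 in NSCs, Adcy3 had 58.70 in Neurons, the adhesion gene Ncam2 had 48.29 in Neurons and Ano2 had 50.90 in Astrocytes. All of these lay in introns. No peak was found in 11 genes of the list in any cell type. They included Omp, the marker of mature olfactory neurons (0.551 kb), Gng13 (1.905 kb), Cnga2 (18.073 kb) and Cnga4 (33.986 kb). The receptor transport genes Rtp1 (2.517 kb) and Rtp2 (14.132 kb) were among them. Ldb1 (25.771 kb), Emx2 (7.009 kb), Atf5 (5.518 kb), Cbx5 (50.749 kb) and Kirrel2 (9.877 kb) also had none. Of 19671 other named protein-coding genes, 60.7% had a peak in any list and 37.9% in all 3. Their median length was shorter, at 19732 bp.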

How the data were processed

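Members and lists were chosen with earlier results of these data known. The submitters' processing notes name BWA without a version; the sources used here give neither build nor annotation. Per the file headers, the authors deposited read counts per library, peak scores (10 times the −log10 p, minimum 50, a p-value of 1e-05), and fold as a ratio. The authors' term tables hold observed gene counts, an expected gene number (deposited as a never-negative signal) and adjusted p-values. The mapping summary holds 1 further library, an astrocyte input with no sample, whose read counts were not used.

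Peaks were read with Python 3.11.15 and pandas 2.3.3, and 6 blank lines were skipped. Overlap meant 1 bp or more, checked on simulated intervals. Exact Clopper-Pearson 95% intervals came from scipy 1.17.1. Symbols were matched to RefSeq (GRCr8) as current names or synonyms: 334 of 341, of which 318 lay on the chromosome of the files. No coordinates of that assembly were joined to the peaks. Other named genes exclude other receptor names and placeholders.

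The rule for named genes took promoter or exon peaks in all 3 lists, the 5 largest folds per list, the 5 genes with most peaks, the 3 largest folds per comparison list with ties, and 3 signalling genes per list. Sequences were narrowed, after values were seen, to promoter peaks and windows on the same chromosome. Motifs, receptor classes and length ranges were also chosen after the files were seen.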

Additional observations from a re-analysis of the deposited data

How the results depend on the processing

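Of 71 values recomputed under another setting, 35 stayed within their main interval or within 1.5 times the main count and 36 did not. At a score of at least 100, receptor peaks numbered 59 in NSCs, 83 in Neurons and 58 in Astrocytes, at 60, 83 and 59 genes. With promoter, exon and intron classes alone they numbered 122, 129 and 100, at 115, 121 and 96 genes. With a score of at least 100 in all lists, NSC receptor peaks overlapped Neurons in 57.6%, Astrocytes in 54.2%, both in 45.8% and neither in 33.9%, and Astrocyte ones overlapped Neurons in 65.5% and both in 46.6%. With that score in 1 list and any score in the others, a setting chosen after seeing the data, NSC peaks overlapped Neurons in 72.9%, Astrocytes in 74.6%, both in 62.7% and neither in 15.3% (all NSC peaks 84.5%, 81.2%, 74.7% and 8.99%). Neuron peaks then overlapped NSCs in 62.7%, Astrocytes in 72.3%, both in 55.4% and neither in 20.5% (all Neuron peaks 78.6%, 79.1%, 69.3% and 11.6%). Astrocyte peaks then overlapped NSCs in 79.3%, Neurons in 84.5%, both in 70.7% and neither in 6.90% (all Astrocyte peaks 84.1%, 87.3%, 78.1% and 6.77%). With comparison regions of a score of at least 100, the shares were 2.01% for NSCs over Neurons and over Astrocytes, 3.46% and 3.03% for Neurons over NSCs and over Astrocytes, and 2.22% and 1.67% for Astrocytes over NSCs and over Neurons. All peaks then gave 1.91% and 2.54%, 2.61% and 2.77%, and 1.51% and 0.849%, so NSCs over Astrocytes turned from above to below all peaks. The cause of these moves was not tested beyond there being fewer regions. Symbols with a suffix, protein-coding genes alone, overlaps of at least 50% of a peak and spans of at least 5 genes stayed within those bounds. Symbols with a suffix changed no count, and overlaps of at least 50% changed no receptor share in the comparison lists. Protein-coding genes alone took the receptor genes from 1195 to 1192. Values under these settings thus nearly repeat the main ones. No replicate could be left out, and no paired analysis was possible because each group has 1 library.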
